A study of Homo sapiens with 10 samples.

Results

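Long intergenic noncoding RNA (lincRNA) genes that carry a LINC symbol were examined in T47D, an established human luminal breast cancer cell line. Members were selected on measured values: a symbol made of LINC and a number, present in both deposited count tables, with over 2 CPM (counts scaled to a library total of 1e6) in at least 2 of the 6 RNA-seq libraries. This left 107 of the 327 LINC genes that both tables hold, and a further 106 LINC genes stood in only 1 of the tables (433 in either). *LINC01503* and *LINC00857* lay just inside the limit, with 2.07 and 2.15 CPM in their second highest library, and *LINC00624* and *LINC00517* just outside it, with 1.98 and 1.95 CPM. Over 2 CPM was reached in all 6 libraries by 56 members and in neither control library by 20 members, which thus entered through knockdown libraries, where they were higher by selection. Of these, 2 reached it only in *TRPS1* siRNA and 2 only in *CHD4* siRNA libraries, whereas 0 members reached it in control libraries alone.

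The study asked which genes the GATA-family repressor TRPS1 binds and controls together with CHD4, the ATPase of the NuRD chromatin remodelling complex. For RNA-seq, 2 libraries each were made 72 h after transfection with *TRPS1* siRNA, *CHD4* siRNA or a control siRNA, and for ChIP-seq, 2 libraries from a TRPS1 immunoprecipitation were sequenced beside 2 of input chromatin. The RNA interference methods and the labels call the *CHD4* reagent an siRNA and the RNA-seq methods call it an shRNA. All groups come from 1 cell line, and the labels do not say whether replicates were separate cultures, so the p values measure the spread between these libraries, which may be technical.

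LincRNAs are transcribed by RNA polymerase II, spliced and polyadenylated as messenger RNAs are, but most carry no long open reading frame. They are typically found at low levels and in few tissues. Some act at the locus they come from, as CHASERR does on its neighbour *CHD2*, others act elsewhere in the cell, and several symbols first given as LINC were later found to encode short proteins. TRPS1 binds DNA through a single GATA-type zinc finger and is known as a marker of breast epithelium and breast cancer.

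All 107 members were matched to RefSeq (GRCh38.p14), 83 by their symbol and 24 by a synonym. RefSeq lists 98 of them as lncRNA, 8 as protein coding and 1 as a transcribed pseudogene. The coding ones include *LINC00998* (SMIM30), *LINC00493* (SMIM26) and *LINC01420* (NBDY), which encode small proteins, and *LINC00094* (BRD3OS) and *LINC00672* (LASP1NB). *LINC00341* and *LINC00950* were matched to the coding genes *SYNE3* and *TMEM8B*, which also had rows of their own in the counts. *LINC01296* is now the pseudogene DUXAP9, which has near-identical copies, so its counts are uncertain. RefSeq spans of 12 members overlap a protein-coding gene, and 27 further members lie within 5 kb of one. A strand setting for the counting was not given in the sources used here, so reads of such pairs cannot be told apart where they overlap.

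The starts of 80 members have a RefSeq promoter window of 300 bases, 250 before and 50 after the gene start. Below are 4 of them, shown 5′ to 3′ on the strand of the gene because the results turn on these genes. *LINC00910* had the TRPS1 peak closest to a start, *LINC01232* had a peak inside the gene and differed between the knockdowns, and *LINC01136* and *LINC01234* had the largest differences between the knockdowns in either direction. Capitals mark matches to WGATAR, the GATA-type motif (A or T, then GATA, then A or G, searched on both strands).
LINC00910: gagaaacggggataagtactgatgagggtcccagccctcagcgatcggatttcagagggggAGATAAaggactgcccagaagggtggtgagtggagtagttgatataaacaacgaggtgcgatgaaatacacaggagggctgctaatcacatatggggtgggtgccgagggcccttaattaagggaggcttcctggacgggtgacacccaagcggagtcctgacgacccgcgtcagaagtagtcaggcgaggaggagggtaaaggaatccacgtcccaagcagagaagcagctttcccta
LINC01232: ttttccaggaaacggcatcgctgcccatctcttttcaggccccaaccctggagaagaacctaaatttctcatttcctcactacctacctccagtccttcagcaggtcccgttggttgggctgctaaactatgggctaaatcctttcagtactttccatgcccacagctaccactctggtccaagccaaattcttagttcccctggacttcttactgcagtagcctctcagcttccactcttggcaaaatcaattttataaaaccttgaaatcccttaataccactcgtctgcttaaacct
LINC01136: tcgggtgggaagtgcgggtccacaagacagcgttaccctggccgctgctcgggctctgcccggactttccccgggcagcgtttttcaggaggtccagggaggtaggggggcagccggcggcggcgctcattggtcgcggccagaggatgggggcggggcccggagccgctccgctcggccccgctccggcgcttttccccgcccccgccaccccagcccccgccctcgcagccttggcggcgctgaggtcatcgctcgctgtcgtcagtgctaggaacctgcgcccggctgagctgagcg
LINC01234: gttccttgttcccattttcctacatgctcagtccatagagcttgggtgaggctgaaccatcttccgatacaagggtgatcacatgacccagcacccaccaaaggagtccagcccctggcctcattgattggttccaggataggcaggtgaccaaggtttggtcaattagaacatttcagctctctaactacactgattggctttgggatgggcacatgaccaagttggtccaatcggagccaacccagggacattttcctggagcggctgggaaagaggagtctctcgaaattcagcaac

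These windows lie on chromosome 17 from 43388849 to 43389148 (*LINC00910*), on chromosome 13 from 99499257 to 99499556 (*LINC01232*), on chromosome 1 from 203305276 to 203305575 (*LINC01136*, listed in RefSeq as BTG2-DT, the divergent transcript of *BTG2*) and on chromosome 12 from 113773634 to 113773933 (*LINC01234*). All 4 genes are on the minus strand. A match stood in 1 of these windows, that of *LINC00910*. Of the 80 member windows 19 (23.8%) held a match, against 25.0% of the 35116 promoter windows of all genes. A match is a run of letters and not a site of binding, and its lack says nothing of TRPS1.

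The library totals ranged from 10333138 to 14668358 counts. The values below are CPM after scaling with TMM factors, and are not divided by transcript length, so they are compared between libraries and not between genes. At this depth 3 counts correspond to 0.197 to 0.288 CPM. *TRPS1* itself was at 1445 and 2269 CPM in the control libraries, 1166 and 722 in *TRPS1* siRNA, and 2450 and 1587 in *CHD4* siRNA libraries. *CHD4* was at 300 and 285 CPM in control, 302 and 268 in *TRPS1* siRNA, and 95.8 and 54.3 in *CHD4* siRNA libraries, so each targeted gene was lower in both of its own knockdown libraries than in both controls. The luminal keratins *KRT8* and *KRT18* and the receptor *ESR1* were present in every library, between 1075 and 5196, 700 and 2600, and 187 and 397 CPM, respectively. Among genes of other cell types *PTPRC*, *PECAM1* and *KRT5* had no row in both tables, *KRT14* was at most at 0.440 CPM, *VIM* ranged from 1.12 to 17.3, and *COL1A1*, a fibroblast collagen, from 59.2 to 156 CPM.

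The library of control siRNA replicate 1 stood apart from the other 5. On the first principal component over all genes, which held 58.3% of the variance, it lay at -91.6 and the others between 5.4 and 24.7. It gave the lowest of the 6 values for 52 of the 107 members (48.6%), against 35.9% of the 13269 genes that passed the same limit, and the highest value for 17 members (15.9%), against 33.8% of all genes. Counts were 0 in this library for 6 members (*LINC00470*, *LINC00540*, *LINC00645*, *LINC01021*, *LINC01176* and *LINC01209*), and no member was at 0 in any other library. Among 243 genes with names ending in AS and a number, most of them antisense lncRNAs, it was the lowest library for 57.2%. Its part in the differences from control was not tested, and comparisons with control are therefore given against each control library alone and without this library.

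The 10 members with the highest mean CPM show this library at both ends. *LINC00472*, which has been described as a tumour suppressor in breast cancer, was at 4.03 and 47.4 CPM in the control libraries, 53.7 and 41.0 in *TRPS1* siRNA, and 47.4 and 42.0 in *CHD4* siRNA libraries. *LINC01004* was at 4.10 and 57.1 in control, 49.7 and 61.0 in *TRPS1* siRNA, and 46.1 and 48.0 in *CHD4* siRNA libraries. *LINC00645* had 0 and 27.7 CPM in control and 29.7 to 37.1 CPM in the 4 knockdown libraries. For these 3 genes the second control library lay at or near the knockdown libraries and the first lay far below them.

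*LINC00641* (12.3 and 30.8 CPM in control against 26.1 to 37.1 in the knockdown libraries) and *LINC00998* (11.8 and 26.6 against 24.2 to 32.0) were also lowest in the first control library. *LINC00094* was highest there, at 96.6 CPM against 51.8 in the second control library and 41.1 to 46.9 in the knockdown libraries. None of these 6 genes separated both control libraries from the knockdown libraries by more than 2-fold.

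*LINC00674* was at 138 and 204 CPM in control, 185 and 200 in *TRPS1* siRNA, and 135 and 135 in *CHD4* siRNA libraries, so the *TRPS1* siRNA values lay within the range of the controls and both *CHD4* siRNA values just below it. *LINC01000* was at 49.97 and 75.2 CPM in control, 129 and 108 in *TRPS1* siRNA, and 115 and 110 in *CHD4* siRNA libraries. All 4 knockdown values of *LINC01000* were above both controls, with log2 ratios of 1.25 and 0.66 (*TRPS1* siRNA) and of 1.17 and 0.58 (*CHD4* siRNA) to the first and second control library. *LINC00173* and *LINC01578*, the remaining genes of the 10, are described with the TRPS1 peaks.

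**Figure D1:**
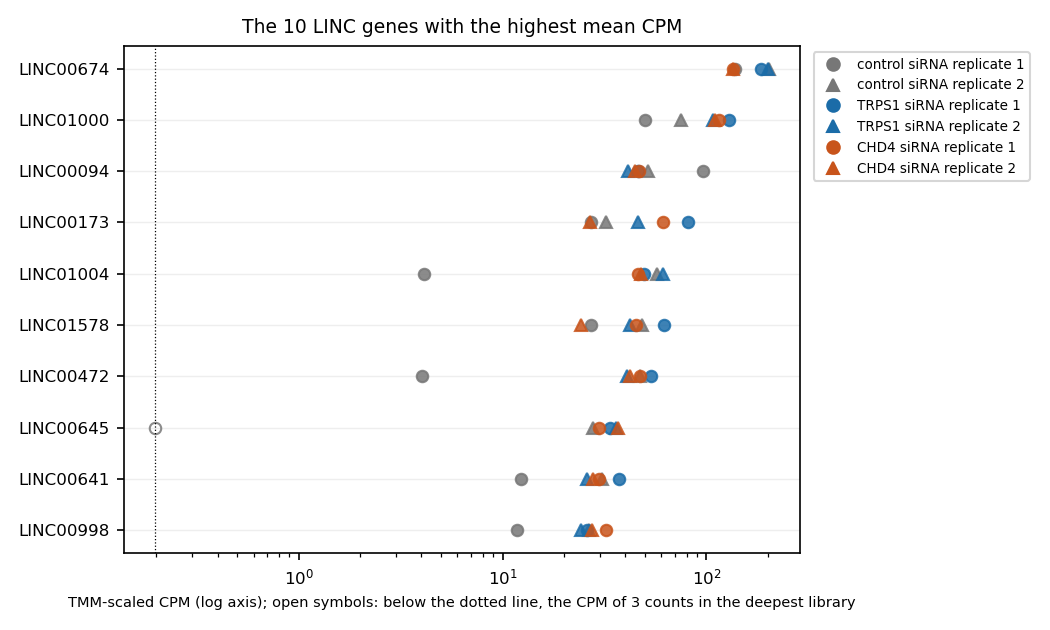
TMM-scaled CPM (x axis, log scale) of the 10 LINC genes with the highest mean CPM (rows) in the 6 libraries; circles are replicate 1, triangles replicate 2, grey control, blue TRPS1 siRNA and orange CHD4 siRNA. Control siRNA replicate 1 lies far to the left for LINC01004, LINC00472 and LINC00645 (4.10, 4.03 and 0 CPM), and to the right for LINC00094 (96.6 CPM).

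Silencing *TRPS1* was compared with control siRNA in edgeR's quasi-likelihood test. The study used a fold change beyond 2 with p under 0.05, applied here to the p before adjustment. By this threshold, 6 of the 100 members tested were higher (*LINC00476*, *LINC00950*, *LINC00342*, *LINC00672*, *LINC00173* and *LINC00174*) and 1 was lower (*LINC00493*). Of these 7, *LINC00950*, *LINC00672* and *LINC00493* are matched to protein-coding genes in RefSeq. In all, 2.70% of the 12921 genes tested were higher and 3.17% lower at this threshold. At an unadjusted p under 0.05 alone, 8 members passed, against 6.98% of all genes. No gene passed at a Benjamini-Hochberg adjusted p under 0.05 (smallest adjusted p = 0.659, edgeR), and with edgeR's likelihood ratio test and DESeq2, which called 0.263% and 0.357% of all genes, 0 members passed. DESeq2 gave an adjusted p for only 48 members and 10917 genes, to which its share refers. The median log2 fold change was 0.44 over the members and -0.02 over all genes, and 78 of the 100 members were above 0, against 48.5% of all genes. As 20 members were admitted by the knockdown libraries alone, this shift is a description. In RNA from whole cultures, fewer cells that express a gene and less RNA per cell cannot be told apart.

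*LINC00476*, an antisense RNA of *ERCC6L2* in RefSeq, was at 0.513 and 0.754 CPM in control, 5.08 and 2.89 in *TRPS1* siRNA, and 3.08 and 1.84 in *CHD4* siRNA libraries. All 4 knockdown values were above both controls, with a log2 fold change of 2.63 ± 0.73 (SE) upon silencing *TRPS1* (edgeR adjusted p = 0.659). *ERCC6L2*, which it overlaps and whose reads may be shared, had a log2 fold change of 0.44 ± 0.52.

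*LINC00342* was at 3.30 and 7.70 CPM in control, 21.3 and 25.9 in *TRPS1* siRNA, and 9.15 and 17.4 in *CHD4* siRNA libraries. Its groups did not overlap, and it had a log2 fold change of 2.11 ± 0.53 upon silencing *TRPS1* (edgeR adjusted p = 0.659). *ANKRD36C*, its nearest coding gene, lies 21951 bp away and had a log2 fold change of 0.97 ± 0.65. *LINC00950* was at 0.806 and 2.72 CPM in control, 11.0 and 4.92 in *TRPS1* siRNA, and 10.8 and 3.21 in *CHD4* siRNA libraries. Both replicates numbered 1 of the knockdowns were over 2-fold above those numbered 2, and the log2 fold change was 2.17 ± 0.80 upon silencing *TRPS1* (edgeR adjusted p = 0.659). *TMEM8B*, the coding gene of which RefSeq gives *LINC00950* as a synonym, had a log2 fold change of 0.12 ± 0.43. Without *TRPS1* siRNA replicate 1 the log2 fold change of *LINC00950* did not pass the threshold, and without control siRNA replicate 2 it was 3.28.

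*LINC00672* (LASP1NB, protein coding in RefSeq and 3844 bp from *LASP1*) was at 1.10 and 1.81 CPM in control, 5.56 and 3.81 in *TRPS1* siRNA, and 3.92 and 3.45 in *CHD4* siRNA libraries. The log2 fold change was 1.68 ± 0.65 upon silencing *TRPS1* (edgeR adjusted p = 0.659), and that of *LASP1*, an actin-binding protein gene, was -0.61 ± 0.39. *LINC00174* was at 9.38 and 13.1 CPM in control, 25.2 and 22.6 in *TRPS1* siRNA, and 16.7 and 15.5 in *CHD4* siRNA libraries. It was thus lowest in control, intermediate upon silencing *CHD4* and highest upon silencing *TRPS1*, with no overlap between the groups. Its log2 fold change of 1.10 ± 0.40 upon silencing *TRPS1* (edgeR adjusted p = 0.659) did not pass the threshold with either *TRPS1* siRNA library left out (1.03 and 1.18).

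*LINC00493* encodes the mitochondrial microprotein SMIM26 and is no noncoding RNA. It was at 36.1 and 17.9 CPM in control, 12.5 and 10.4 in *TRPS1* siRNA, and 8.59 and 12.4 in *CHD4* siRNA libraries. All 4 knockdown values were below both controls. The log2 fold change was -1.24 ± 0.47 upon silencing *TRPS1* (edgeR adjusted p = 0.659) and -1.36 ± 0.51 upon silencing *CHD4* (edgeR adjusted p = 0.792), and without control siRNA replicate 1 it was -0.64 and -0.75, under 2-fold in both. With 1 library of either knockdown left out it lay between -1.62 and -1.10 and did not pass the threshold.

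Without control siRNA replicate 1, in a fit where the single control library is assumed to vary as the knockdown libraries do, 18 of 98 members tested were higher upon silencing *TRPS1* and 1 was lower, against 5.71% and 2.40% of all genes. *LINC00342*, *LINC00476*, *LINC00672* and *LINC00950* were among the 18, and *LINC00173* and *LINC00174* were not (log2 fold changes of 0.99 and 0.88). *LINC01232*, the nearest gene of a TRPS1 peak, was also among them. Members under 2 CPM in the control library kept could enter such a fit only through their knockdown values, where they were higher by selection. In the second control library *LINC00476* was at 0.754 CPM, *LINC00672* at 1.81 and *LINC01232* at 1.43. The share of all genes that entered in this way was not counted, so no excess of members over all genes is concluded. When the second control library was left out instead, 45 of 97 members passed in either direction upon silencing *TRPS1* and 45 of 93 upon silencing *CHD4*, against 33.6% and 31.0% of all genes.

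**Figure D2:**
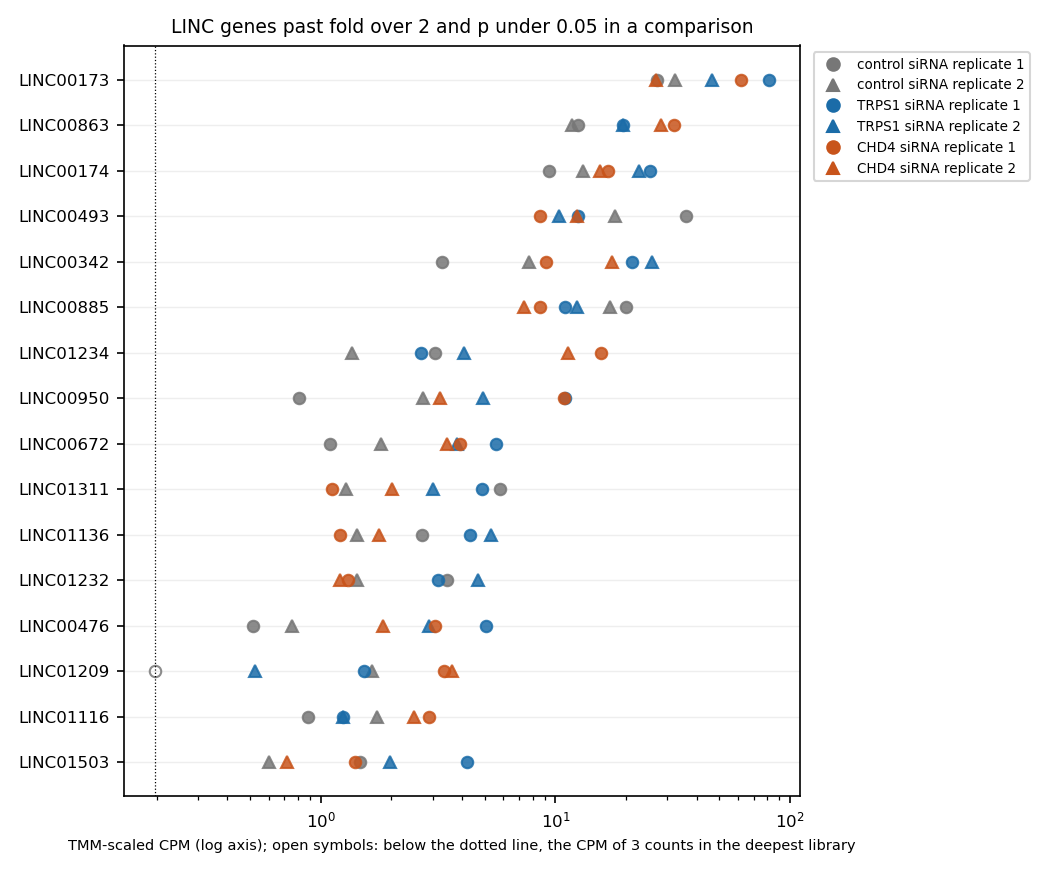
TMM-scaled CPM (x axis, log scale) in the 6 libraries of the 16 LINC genes past 2-fold and unadjusted p under 0.05 in at least 1 of the 3 comparisons, in order of mean CPM; symbols as in the plot of the 10 highest LINC genes, open where below the CPM of 3 counts. For LINC01234 both CHD4 siRNA libraries (15.7 and 11.3 CPM) lie apart from the other 4, which are at 4.07 CPM or less.

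Silencing *CHD4* was compared with control siRNA in the same test and at the same threshold. Of 96 members tested, *LINC01234* and *LINC00863* were higher, and *LINC00493* and *LINC00885* were lower. At this threshold 2.60% of the 12918 genes tested were higher and 2.85% lower, and the members' shares (2.08% in each direction) were near these. At an unadjusted p under 0.05 the same count of 4 members passed, against 5.95% of all genes. By adjusted p the quasi-likelihood test called 0 members and 0 genes (smallest adjusted p = 0.748, edgeR), the likelihood ratio test called 1 member (*LINC01234*) and 0.449% of all genes, and DESeq2 called 0 members and 0.387% of all genes. The median log2 fold change was 0.34 over the members and -0.02 over all genes, and 70 of 96 members were above 0, against 48.5% of all genes. This shift too is a description, as 20 members were admitted by the knockdown libraries alone. Both knockdowns were compared with the same control libraries, so these comparisons are not independent of each other.

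*LINC01234*, an lncRNA studied in several cancers, was at 3.08 and 1.36 CPM in control, 2.68 and 4.07 in *TRPS1* siRNA, and 15.7 and 11.3 in *CHD4* siRNA libraries (168 and 141 counts). Both *CHD4* siRNA libraries were above all the others. The log2 fold change over control was 2.61 ± 0.63 upon silencing *CHD4* (edgeR adjusted p = 0.792) and 0.61 ± 0.70 upon silencing *TRPS1*. Its nearest coding gene, *RBM19*, lies 43057 bp away and had a log2 fold change of 0.16 ± 0.39 upon silencing *CHD4*. Without *CHD4* siRNA replicate 1 the log2 fold change of *LINC01234* over control was 2.37 and did not pass the threshold.

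*LINC00863*, 442 bp from *NUTM2D*, was at 12.5 and 11.8 CPM in control, 19.5 and 19.4 in *TRPS1* siRNA, and 31.9 and 28.2 in *CHD4* siRNA libraries. The 2 values within each group lay close together, the 3 groups did not overlap, and the log2 fold change was 1.32 ± 0.41 upon silencing *CHD4* (edgeR adjusted p = 0.792). *NUTM2D* had a log2 fold change of 0.89 ± 0.54 in the same comparison, and *LINC00863* overlaps *NUTM2A-AS1* in RefSeq. *LINC00885* was at 20.002 and 17.1 CPM in control, 11.0 and 12.3 in *TRPS1* siRNA, and 8.59 and 7.38 in *CHD4* siRNA libraries. Its groups did not overlap either, with control the highest, and the log2 fold change was -1.21 ± 0.45 upon silencing *CHD4* (edgeR adjusted p = 0.792). With either *CHD4* siRNA library left out, *LINC00863* (1.24 and 1.43) and *LINC00885* (-1.30 and -1.07) did not pass the threshold. Without control siRNA replicate 1, 6 of 91 members were higher and 2 lower upon silencing *CHD4*, against 5.68% and 2.06% of all genes, and *LINC01234*, *LINC00863* and *LINC00885* were among these 8.

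The mean of each pair of knockdown libraries was also set against each control library alone. Values under 3 counts were raised to 3 counts, so a ratio to a control library at 0 is a lower bound. Upon silencing *TRPS1*, 10 of the 107 members were over 2-fold above both control libraries and 0 were over 2-fold below both, against 3.50% (higher) and 1.18% (lower) of the 13269 genes. Upon silencing *CHD4*, 10 members were above and 2 below (*LINC00885* and *LINC01224*), against 3.40% and 1.07% of all genes. A ratio has no test here, and members over 2 CPM in no control library entered through their knockdown values. Among the 56 members over 2 CPM in every library of the comparison, 1 was past 2-fold from both control libraries upon silencing *TRPS1* and 2 upon silencing *CHD4*, where 2.31% and 2.18% of all such genes were.

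The number of members past 2-fold depended on which control library was used. Against the first, 45 members were over 2-fold higher upon silencing *TRPS1* and 43 upon silencing *CHD4*, and 7 and 11 over 2-fold lower, where 20.4% and 19.6% of all genes were higher and 14.8% and 13.9% lower. Against the second, 21 and 15 members were higher, and 1 and 3 lower, where 6.81% and 7.16% of all genes were higher and 2.77% and 2.69% lower. The median log2 ratio of the members was 0.64 (*TRPS1* siRNA) and 0.60 (*CHD4* siRNA) to the first control library, and 0.52 and 0.30 to the second, where the medians of all genes lay between 0.01 and 0.05. The 20 members admitted by knockdown values alone are part of these medians, which are a description.

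Past 2-fold above both control libraries in both knockdowns were 3 members, namely *LINC00476*, *LINC00672* and *LINC00950*, against 1.75% of all genes, and none was past it in opposite directions. Both knockdowns share their control libraries, and *LINC00476* and *LINC00672* were over 2 CPM in neither of these, so they were admitted by their knockdown values. The log2 ratios of *LINC00476* were 2.96 and 2.40 (*TRPS1* siRNA) and 2.26 and 1.71 (*CHD4* siRNA) to the first and second control library. Those of *LINC00672* were 2.09 and 1.37, and 1.75 and 1.02, and those of *LINC00950* were 3.31 and 1.55, and 3.12 and 1.37. All 3 were below 3 CPM in both control libraries, which allowed counts of 7 to 36 there.

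*LINC01021* (PURPL, a p53-induced lncRNA, named here after its values were seen) was at 0 and 0.981 CPM in control, 3.16 and 3.54 in *TRPS1* siRNA, and 2.05 and 1.76 in *CHD4* siRNA libraries. It was over 2-fold above both controls upon silencing *TRPS1* but did not pass the threshold in the test with both control libraries, and its ratio to the first control library is a lower bound.

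**Figure D3:**
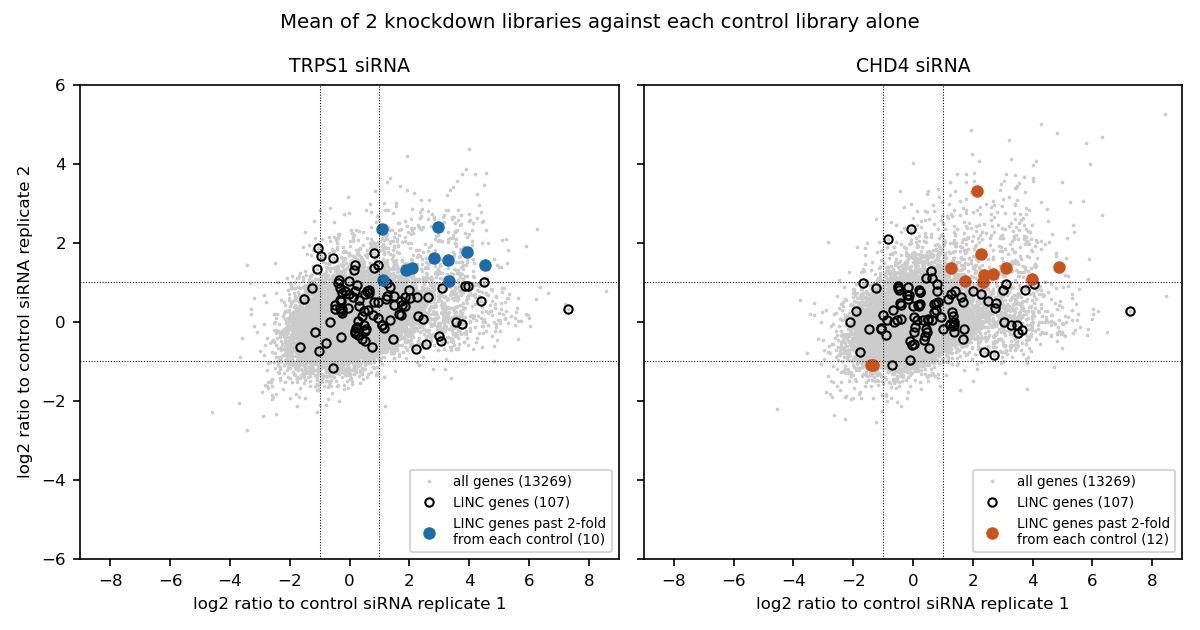
Log2 ratio of the mean of 2 knockdown libraries to control siRNA replicate 1 (x axis) and to replicate 2 (y axis), for all 13269 genes (grey), the 107 LINC genes (open circles) and those past 2-fold in one direction from each control library (filled); the left panel is TRPS1 siRNA and the right CHD4 siRNA, and dotted lines mark 2-fold. The filled LINC genes number 10 on the left, all higher, and 12 on the right, of which 2 are lower, and the spread along the x axis is wider than along the y axis.

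A direct comparison of the knockdowns needs no control library. Of 105 members tested, 3 were higher (*LINC01234*, *LINC01209* and *LINC01116*) and 4 lower (*LINC01136*, *LINC01232*, *LINC01503* and *LINC01311*) in *CHD4* siRNA than in *TRPS1* siRNA libraries at that threshold, against 2.12% and 1.56% of the 13143 genes tested. *LINC01209* and *LINC01116* were under 2 CPM in both *TRPS1* siRNA libraries, and *LINC01136*, *LINC01232* and *LINC01503* in both *CHD4* siRNA libraries. These entered the test through the knockdown in which they were higher by selection. Among members over 2 CPM in every library compared, 1 was past the threshold, but the share of all genes under this filter was not counted. At an unadjusted p under 0.05 alone, 17 members passed, against 15.4% of all genes, so the members' share (16.2%) was near the background. By adjusted p the quasi-likelihood test called 0 members and 0 genes (smallest adjusted p = 0.0903, edgeR), the likelihood ratio test called 4 members (*LINC01136*, *LINC01209*, *LINC01232* and *LINC01234*) and 4.34% of all genes, and DESeq2 called 1 member (*LINC01234*) and 3.47% of all genes. The median log2 fold change was -0.15 over the members and 0.00 over all genes, and 34 of the 105 members were above 0, against 49.8% of all genes.

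*LINC01234*, whose values are given above, differed most, with a log2 fold change of 1.98 ± 0.33 between the knockdowns (edgeR adjusted p = 0.101). *LINC01209* was at 1.53 and 0.525 CPM in *TRPS1* siRNA and at 3.36 and 3.61 in *CHD4* siRNA libraries (16 and 8 against 36 and 45 counts), beside 0 and 1.66 CPM in control. Both *CHD4* siRNA values were the highest of the 6, and the log2 fold change was 1.83 ± 0.54 (edgeR adjusted p = 0.209). *LINC01116*, which lies near the HOXD cluster, was at 1.25 and 1.25 CPM in *TRPS1* siRNA and at 2.89 and 2.49 in *CHD4* siRNA libraries, beside 0.879 and 1.74 in control. The difference of *LINC01116* was just over 2-fold, a log2 fold change of 1.11 ± 0.37 (edgeR adjusted p = 0.251). With either *TRPS1* siRNA library left out *LINC01116* did not pass the threshold, and *LINC01209* was at 2.71 without the first and, no longer past the threshold, at 1.21 without the second.

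*LINC01136* (BTG2-DT) was at 4.32 and 5.32 CPM in *TRPS1* siRNA and at 1.21 and 1.76 in *CHD4* siRNA libraries, beside 2.71 and 1.43 in control. The control libraries lay between the knockdowns or among the *CHD4* siRNA values, and the log2 fold change between the knockdowns was -1.68 ± 0.37 (edgeR adjusted p = 0.138). *BTG2*, an antiproliferative p53 target whose start is 194 bp from *LINC01136*, had a log2 fold change of 0.27 ± 0.20 in the same comparison. *LINC01503* was at 4.22 and 1.97 CPM in *TRPS1* siRNA and at 1.40 and 0.722 in *CHD4* siRNA libraries, and *LINC01311* at 4.89 and 3.02 against 1.12 and 2.01. In control they were at 1.47 and 0.604 (*LINC01503*) and at 5.79 and 1.28 CPM (*LINC01311*), so both control libraries of *LINC01311* lay outside the range of the *TRPS1* siRNA values, on either side. Their log2 fold changes between the knockdowns were -1.52 ± 0.57 and -1.30 ± 0.45 (edgeR adjusted p = 0.289 and 0.263). *LINC01503* was at -1.08 without *CHD4* siRNA replicate 2, and *LINC01311* at -0.96 and -0.94 without *CHD4* siRNA replicate 1 or *TRPS1* siRNA replicate 1, and these did not pass the threshold.

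These 7 members had 8 to 168 counts per knockdown library. Across the 77 members whose nearest coding gene was tested too, the log2 fold changes between the knockdowns of the lincRNA gene and of that neighbour had a Spearman correlation of 0.08, and over the 32 of them within 5 kb it was 0.19. Against control it was 0.14 over 71 members (*TRPS1* siRNA) and 0.19 over 68 (*CHD4* siRNA), and 0.09 over 29 and 0.05 over 25 members within 5 kb. All pairs share the same libraries, and these weak correlations are a description.

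**Figure D4:**
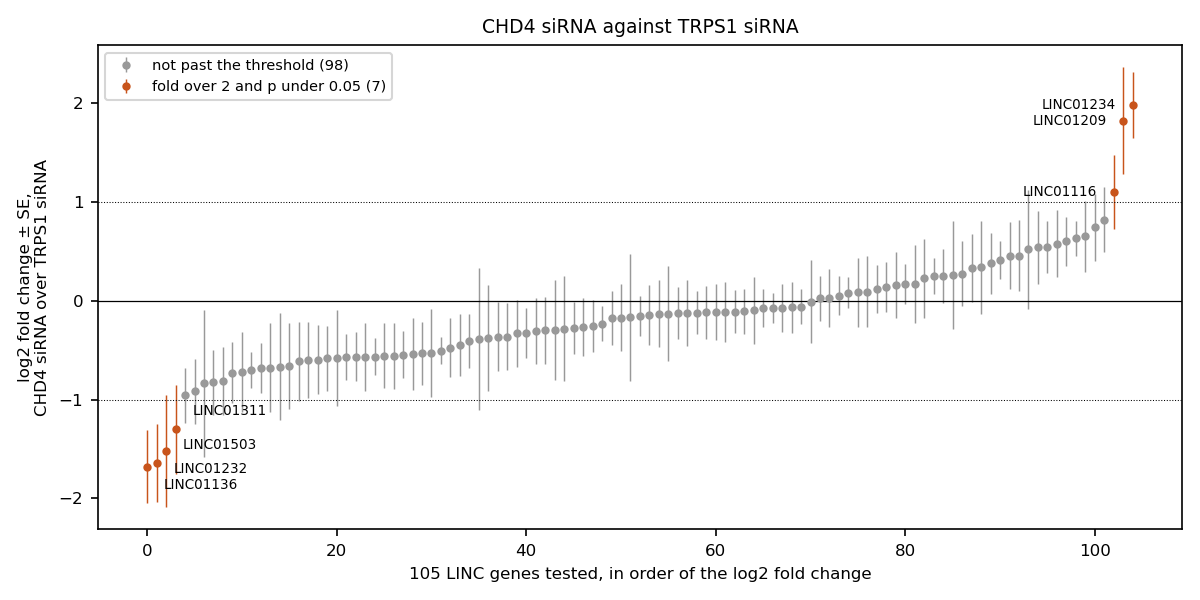
Log2 fold change of CHD4 siRNA over TRPS1 siRNA with its SE (y axis) for the 105 LINC genes tested, in ascending order (x axis); orange marks the 7 past the threshold of 2-fold and unadjusted p under 0.05, and dotted lines mark 2-fold. LINC01234 is at 1.98 and LINC01136 at -1.68, and 71 of the 105 points are below 0.

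The deposited list holds 1844 TRPS1 peaks and is named for both TRPS1 ChIP-seq libraries. It has no value per replicate, and whether replicates were pooled was not given in the sources used here. In the study's annotation of these peaks, 50 LINC genes are the nearest gene of a peak. Of these, 25 were in both count tables, and 6 of those were members (*LINC00173*, *LINC00536*, *LINC00910*, *LINC01232*, *LINC01578* and *LINC01588*) with 9 peaks in all, while 19 lay under the limit of 2 CPM. The 6 of 107 members compare with 7.58% of the 13269 genes that passed the same limit. From the gene starts in RefSeq, 3 of 80 members had a peak within 5 kb, against 4.30% of genes, and 10 had one within 50 kb, against 13.2%. The shares of the members were 5.61%, 3.75% and 12.5%, near those of all genes.

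*LINC00910* had 2 peaks on chromosome 17. The nearer, from 43389274 to 43389658, had its closer edge 376 bp upstream of the gene start, outside the window printed above, and the other, from 43309811 to 43310176, lay 78722 bp downstream of it, past the end of the gene. *LINC00910* was at 11.8 and 6.26 CPM in control, 8.92 and 12.5 in *TRPS1* siRNA, and 10.8 and 6.58 in *CHD4* siRNA libraries. All 3 groups overlapped, and the member with the peak closest to its start had log2 fold changes of 0.25 ± 0.51 and -0.05 ± 0.57 upon silencing *TRPS1* and *CHD4*.

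*LINC01232*, 2166 bp from *TM9SF2*, had a peak inside the gene on chromosome 13 from 99496319 to 99496648, 2658 bp downstream of the start. It was at 3.44 and 1.43 CPM in control, 3.16 and 4.66 in *TRPS1* siRNA, and 1.31 and 1.20 in *CHD4* siRNA libraries. The *TRPS1* siRNA values overlapped with control. Both *CHD4* siRNA values were below the other 4, but just under the second control library (14 and 15 against 19 counts). The log2 fold change between the knockdowns was -1.64 ± 0.39 (edgeR adjusted p = 0.153), and that of *TM9SF2* was -0.05 ± 0.18.

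*LINC01588* also had a peak inside the gene, on chromosome 14 from 50003319 to 50003641, 3879 bp downstream of the start. It was at 6.23 and 8.15 CPM in control, 8.15 and 6.83 in *TRPS1* siRNA, and 3.64 and 4.01 in *CHD4* siRNA libraries. Both *CHD4* siRNA values were the lowest of the 6, with a log2 fold change of -0.96 ± 0.28 from *TRPS1* siRNA (edgeR adjusted p = 0.207), which was under 2-fold.

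*LINC00173* was the nearest gene of a peak on chromosome 12 from 116503193 to 116503560, 29862 bp upstream of its start. It was at 27.1 and 32.3 CPM in control, 81.6 and 46.4 in *TRPS1* siRNA, and 61.5 and 26.8 in *CHD4* siRNA libraries. Upon silencing *TRPS1* both values were above both controls, with a log2 fold change of 1.11 ± 0.41 (edgeR adjusted p = 0.659), and upon silencing *CHD4* the groups overlapped, at 0.58 ± 0.49. With all 6 libraries in one fit *LINC00173* was at 1.11 upon silencing *TRPS1* and did not pass the threshold. Without *TRPS1* siRNA replicate 1 its log2 fold change was 0.67, leaving out *TRPS1* siRNA replicate 2 gave 1.47 and leaving out control siRNA replicate 1 gave 0.99, and none of the 3 passed the threshold. Among the members nearest to a peak it was the one past the threshold upon silencing *TRPS1* with both control libraries. Without control siRNA replicate 1 the log2 fold change of *LINC01232* was 1.46, but *LINC01232* entered that fit through its *TRPS1* siRNA values.

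*LINC01578* is CHASERR, the lncRNA that holds down the chromatin remodeller gene *CHD2* 1577 bp downstream of it. Its peak on chromosome 15, from 92869256 to 92870057, lay 12786 bp upstream of its start. *LINC01578* was at 27.0 and 48.2 CPM in control, 61.9 and 42.0 in *TRPS1* siRNA, and 45.4 and 24.4 in *CHD4* siRNA libraries, with overlap between all groups. *CHD2* was at 82.3 and 141 CPM in control and between 127 and 136 in the 4 knockdown libraries. *LINC01578* and *CHD2* had log2 fold changes of -0.56 ± 0.34 and -0.05 ± 0.14 between the knockdowns.

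*LINC00536* lies 281536 bp from *TRPS1*, its nearest coding gene, and was the nearest gene of 3 peaks that overlap its RefSeq span. That from 116324776 to 116325140 runs past the end of the span at 116325059. In addition, 1 more peak inside the span was assigned to another gene. *LINC00536* was at 0.513 and 2.72 CPM in control, 2.88 and 2.82 in *TRPS1* siRNA, and 3.83 and 3.05 in *CHD4* siRNA libraries. Apart from the first control library the values lay between 2.72 and 3.83 CPM, and no comparison of *LINC00536* passed the threshold. *LINC01136*, which differed between the knockdowns, had a peak 11390 bp upstream of its start, of which another gene was the nearest.

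**Figure D5:**
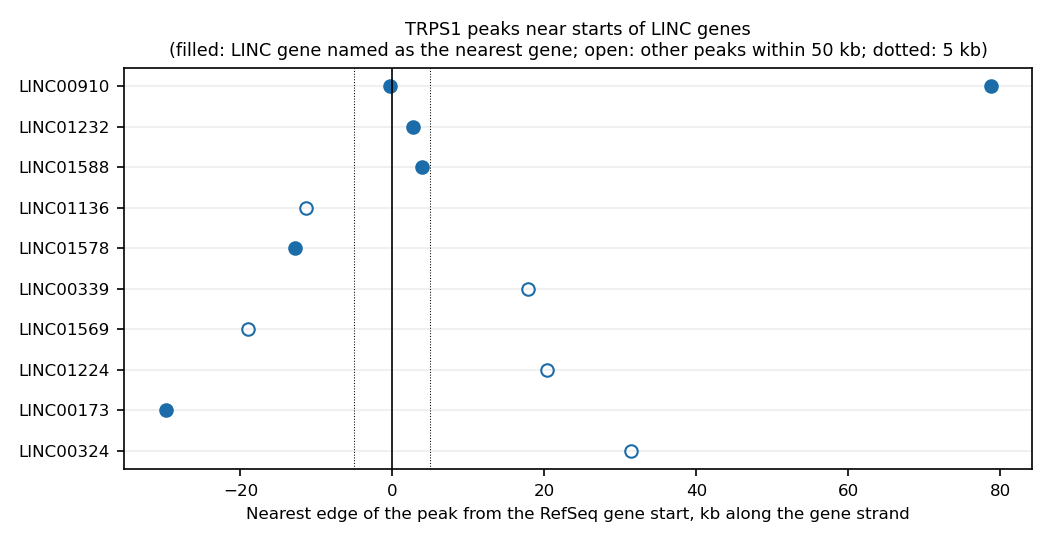
Distance of the nearest edge of each TRPS1 peak from the RefSeq start of a LINC gene (x axis, kb along the strand of the gene, with negative values upstream) for the 10 LINC genes with a peak within 50 kb; filled points are peaks of which that LINC gene is the nearest gene in the study's annotation, and dotted lines mark 5 kb. LINC00910, LINC01232 and LINC01588 have a peak within 5 kb, and LINC00536 is left out because its start is not in the table used.

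Other lncRNA genes were set beside the LINC genes. Of 24 well-known ones listed, 18 passed the limit of 2 CPM in at least 2 libraries, and control siRNA replicate 1 was the lowest library for 10 of the 18. None of the 18 passed the threshold upon silencing *TRPS1*, and 1 did, lower, upon silencing *CHD4* and between the knockdowns. This was *DSCAM-AS1*, an oestrogen receptor-regulated lncRNA of luminal breast cancer and the nearest gene of 7 peaks, at 79.9 and 57.8 CPM in control, 66.9 and 61.8 in *TRPS1* siRNA, and 24.3 and 34.3 in *CHD4* siRNA libraries. Its log2 fold change was -1.22 ± 0.42 from control and -1.13 ± 0.21 from *TRPS1* siRNA, and -0.09 ± 0.35 upon silencing *TRPS1*. Both *CHD4* siRNA values of *DSCAM-AS1* were below the other 4. *LINC01232* and *LINC01588* had the same order, and these 3 were chosen after their values were seen. Among the members nearest to a peak, *LINC00173*, *LINC00536*, *LINC00910* and *LINC01578* did not have it. The share of all genes with this order was not counted, so nothing is concluded about genes near TRPS1 peaks.

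Among the genes with names ending in AS and a number, 9 of 228 tested were higher and 0 lower past the threshold upon silencing *TRPS1*, 0 of 216 were higher and 2 lower upon silencing *CHD4*, and 2 of 236 were higher and 13 lower in *CHD4* siRNA than in *TRPS1* siRNA libraries. Of all genes tested, 2.70% were higher and 3.17% lower in the first comparison, 2.60% and 2.85% in the second, and 2.12% and 1.56% in the third. The median log2 fold changes of the genes named in this way were 0.57, 0.34 and -0.21. The medians of the LINC genes had the same signs, at 0.44, 0.34 and -0.15.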

How the data were processed

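The members and gene lists were chosen with earlier results of these data known. Per the paper's methods, the authors depleted ribosomal RNA, used STAR for RNA-seq alignment and HTSeq for counting (0.9.0 in the submitters' processing notes, which name the build hg38), and deposited raw counts in 2 tables, which were joined by symbol (18262 genes). Peaks were called by the authors with MACS2 (2.1.1) after alignment with BWA (0.7.12-r1039), and the deposited list gives their positions, which equal those of the study's annotated list, from which only the nearest gene was taken. Each comparison was fitted with a minimum of 2 CPM exceeded in 2 or more of its 4 libraries, over all such genes, in edgeR 4.0.16 (R 4.3.3; TMM factors, quasi-likelihood F-test, prior count 0.125, Benjamini-Hochberg adjustment); SEs were obtained from the F statistic and the log2 fold change. DESeq2 1.42.0, edgeR's likelihood ratio test, other scalings and filters, a replicate block and leaving out each library were alternatives. An exact permutation test of 2 against 2 libraries cannot give a p below 0.333. Ratios to 1 library used a floor of 3 counts. Depth per library was 10333138 to 14668358 counts. The fits were tested on simulated data.

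Named were the 10 members with the highest mean CPM, those nearest to a peak, up to 6 in each direction past the threshold per comparison, and those past 2-fold from each control library in both knockdowns. Gene positions and promoters are from RefSeq. Peak sequences and splice forms were not analysed here. Python 3.11.15 and matplotlib 3.10.9 were used.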

Additional observations from a re-analysis of the deposited data

Results flagged for a closer look

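The effect of a knockdown on 7 members differed between *TRPS1* siRNA and *CHD4* siRNA in the direct comparison (fold change over 2 and unadjusted p under 0.05), where the adjusted p of edgeR's quasi-likelihood test was 0.101 or higher. The log2 fold changes of *CHD4* siRNA over *TRPS1* siRNA were 1.98 for *LINC01234*, 1.83 for *LINC01209*, 1.11 for *LINC01116*, -1.30 for *LINC01311*, -1.52 for *LINC01503*, -1.64 for *LINC01232* and -1.68 for *LINC01136*. *LINC01234* was called by all of edgeR's likelihood ratio test, DESeq2 and the fold and p threshold, and only *LINC01232* of the 7 was the nearest gene of a TRPS1 peak. *LINC01209*, *LINC01116*, *LINC01136*, *LINC01232* and *LINC01503* were under 2 CPM in both libraries of 1 knockdown. These entered the test through the other knockdown, in which they were higher by selection, so their differences are a description. Of 105 members 3 were higher and 4 lower, against 2.12% and 1.56% of the 13143 genes tested. Among members over 2 CPM in every library compared, 1 passed. With 2 libraries per group no test for a single library far from the rest was made. When 1 library was left out, *LINC01209* (1.21 without *TRPS1* siRNA replicate 2), *LINC01503* (-1.08 without *CHD4* siRNA replicate 2), *LINC01311* (-0.96 and -0.94 without *CHD4* siRNA replicate 1 or *TRPS1* siRNA replicate 1) and *LINC01116* (1.10 and 1.13 without either *TRPS1* siRNA library) did not pass the threshold. *LINC01136*, *LINC01232* and *LINC01503* fell below the filter and were not tested without either *TRPS1* siRNA library. The same held for *LINC01209* and *LINC01116* without either *CHD4* siRNA library.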

How the results depend on the processing

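Of the 18 calls of single members, 159 of 192 settings kept the direction and the threshold, 33 kept the direction only and 0 were reversed. Settings in which a member fell below the filter and was not tested are not among the 192. Such were those of *LINC00476* and *LINC00672* without either *TRPS1* siRNA library. Counts of members past the threshold (7 upon silencing *TRPS1*, 4 upon silencing *CHD4* and 7 between the knockdowns) moved with the settings below, and the cause was not tested. Except without 1 control library, the share of all genes past the threshold in the same setting was not counted. A moved count is therefore no result about the members. All 6 libraries in one fit gave 11, 11 and 3; the likelihood ratio test gave 11 and 7 upon silencing *TRPS1* and *CHD4*; testing without a filter gave 11 and 13; and over 2 CPM in every library, with fewer genes tested, left 1 between the knockdowns. Leaving out 1 library gave 1 (without *TRPS1* siRNA replicate 1) to 45 (without control siRNA replicate 2) upon silencing *TRPS1*, 0 (without *CHD4* siRNA replicate 1) to 45 (without control siRNA replicate 2) upon silencing *CHD4*, and 3 (without either *TRPS1* siRNA library) to 10 between the knockdowns. Replicate numbers are shared across groups, but no label ties them to a culture or day. Deviations of replicate 1 correlated at 0.09 and 0.02 between control and *TRPS1* siRNA or *CHD4* siRNA and at 0.65 between the knockdowns, and the replicate block gave 18 and 13 members against control and 7 between the knockdowns. Counts past 2-fold from each control library (10 for *TRPS1* siRNA and 12 for *CHD4* siRNA) became 1 and 2 with over 2 CPM in every library, 5 for *CHD4* siRNA when each of its libraries had to pass, and 10 to 14 without 1 knockdown library. The 6 members nearest to a peak became 3 and 10 within 5 kb and 50 kb of the start, and 10 with members admitted over 1 CPM. On average 53 of the 107 members, and 8 of the 16 past the threshold in any comparison, were under 5 CPM.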
